A study of Rattus norvegicus with 59 samples.

Results

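Mitochondrial ribosomal proteins build the ribosome that works inside mitochondria, and their transcript levels were measured in livers of rats injected once with cadmium (Cd) or chromium (Cr) and killed on day 1, 3 or 7. The members were the probe sets of the array whose annotation gives exactly 1 gene symbol, beginning with Mrpl or Mrps and a digit. There were 97 such probe sets of 31042 tested, for 73 genes: 46 genes named Mrpl with 58 probe sets, and 27 named Mrps with 39. No probe set with several symbols held a member. Livers came from male Sprague-Dawley rats whose age is not given in the sources used here. The groups were rats given 1.25 mg/kg Cd as CdCl2 and killed on day 1 (n = 4), day 3 (n = 5) or day 7 (n = 5), rats given Cr as Na2Cr2O7, at 20 mg/kg by the labels (the methods print a lower figure in 1 place, and also state that the high Cr dose was the one used), and killed on the same days (n = 5 each), and for each metal and day 5 control rats given the saline vehicle by the same intraperitoneal route. The labels call each liver a biological replicate. The authors left out 1 Cd liver of day 1 that clustered with the controls and had accumulated no Cd, so the exposed livers of that day carry the numbers 1, 2, 4 and 5.

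The mitochondrial ribosome translates the few proteins that mitochondrial DNA encodes, all of them parts of the respiratory chain and the ATP synthase. Its RNAs come from mitochondrial DNA, but every one of its proteins is encoded in the nucleus, made in the cytosol and imported. The large subunit (proteins mostly named Mrpl) holds the centre that joins amino acids, and the small subunit (mostly Mrps) reads the messenger RNA. Some of the proteins descend from those of the bacterial ribosome, and others occur only in mitochondria. In liver, whose hepatocytes are rich in mitochondria, this ribosome sustains the oxidative metabolism on which urea synthesis, gluconeogenesis and fat oxidation draw.

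On day 1 about as many members rose after Cr as did not change by a called amount, and few changed after Cd. Of the 97 probe sets, 49 (45 genes) were called higher and 1 lower in Cr livers than in same-day controls. Of all probe sets 14.8% were called higher and 11.2% lower after Cr. In Cd livers 4 members were called higher and 3 lower, beside 6.39% and 5.27% of all probe sets. A call here means an adjusted p of 0.05 or less in limma over all 31042 probe sets, with no minimum fold. On days 3 and 7 no member was called after either metal. Of all probe sets 0.612% and 0.0129% were called on those days after Cd, and 0.00322% and 0.126% after Cr. The largest rise was 1.91-fold, of Mrpl47, and the median change of the members on Cr day 1 was 0.215 on the log2 scale.

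Promoters are shown for 4 genes picked for their day 1 values. Mrps18b and Mrpl17 are among those called higher after both metals. Mrpl47 had the largest Cr rise and Mrpl12 the largest difference between metals. Whether promoter letters bear on the changes was not tested. RefSeq promoters of the rat assembly GRCr8, from 250 bases before to 50 bases after the gene's start, matched 59 of the 73 genes by gene ID or symbol. They lie at chr20:2842756-2843055 (plus strand), chr1:169575650-169575949 (minus strand), chr2:117447312-117447611 (minus strand) and chr10:106256496-106256795 (plus strand), and are printed along the gene's own strand. Capitals mark matches, on either strand, to the letters CACGTG (the E-box that Myc binds), CCGGAAG (the ETS family, which includes GABP), AAGATGGC (YY1), GCGCATGC (part of the NRF1 site), TCTCGCGA and CCAAT.
Mrps18b: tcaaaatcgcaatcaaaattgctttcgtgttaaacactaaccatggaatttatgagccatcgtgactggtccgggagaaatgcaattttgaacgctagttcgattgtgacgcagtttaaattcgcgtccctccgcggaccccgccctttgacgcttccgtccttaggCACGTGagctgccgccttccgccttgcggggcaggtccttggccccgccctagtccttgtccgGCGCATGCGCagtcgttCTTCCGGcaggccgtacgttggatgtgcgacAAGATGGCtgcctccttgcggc
Mrpl17: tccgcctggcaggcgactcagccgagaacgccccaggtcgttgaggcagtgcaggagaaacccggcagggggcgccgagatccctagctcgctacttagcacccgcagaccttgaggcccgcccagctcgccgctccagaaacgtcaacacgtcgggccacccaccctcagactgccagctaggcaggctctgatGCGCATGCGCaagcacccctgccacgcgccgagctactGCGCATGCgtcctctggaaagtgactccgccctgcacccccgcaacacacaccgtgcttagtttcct
Mrpl47: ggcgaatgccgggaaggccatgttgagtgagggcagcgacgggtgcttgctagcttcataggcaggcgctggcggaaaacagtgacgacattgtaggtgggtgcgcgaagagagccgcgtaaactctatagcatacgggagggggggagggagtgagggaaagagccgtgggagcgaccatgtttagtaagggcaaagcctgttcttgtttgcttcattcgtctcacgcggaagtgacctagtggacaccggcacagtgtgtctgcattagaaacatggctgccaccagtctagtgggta
Mrpl12: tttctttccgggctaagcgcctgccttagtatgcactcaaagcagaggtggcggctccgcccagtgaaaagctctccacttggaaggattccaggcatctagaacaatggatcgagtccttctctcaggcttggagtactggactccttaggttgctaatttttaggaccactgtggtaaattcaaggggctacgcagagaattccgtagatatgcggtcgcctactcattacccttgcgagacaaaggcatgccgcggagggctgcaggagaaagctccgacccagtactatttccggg
The Mrps18b promoter held a match to 4 of the 6 letter sets, and that of Mrpl17 to the NRF1 letters alone. Those of Mrpl47 and Mrpl12 held none of the 6 in this window. The run GCGCATGCGC is its own reverse complement and holds the NRF1 letters on each strand, so it counts on both strands.

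For these counts a gene was classed by its brightest probe set, so one called only through a dimmer probe set stands with the other members. Over the 59 promoters with a sequence, the NRF1 letters stood in 5 of the 34 genes called higher on Cr day 1, in 0 of the 25 other members and in 2.66% of all 27457 promoters. The ETS letters stood in 10 of the 34, in 10 of the 25 and in 9.22% of all promoters. The YY1 letters stood in 8 of the 34, in 6 of the 25 and in 3.44% of all. So the ETS and YY1 letters were found in members of both kinds. The E-box stood in 3 of the 34, 3 of the 25 and 6.65% of all promoters, TCTCGCGA in 1, 1 and 0.943%, and CCAAT in 13, 13 and 37.7%. These matches are descriptions of the letters, and no binding was measured. Mrps11 and Mrpl46 lie head to head on chromosome 1 with 234 bases between their starts and share 267 bases of promoter window (chr1:142117014-142117280), and both were called higher on Cr day 1, by 0.28 ± 0.08 and 0.42 ± 0.08 on the log2 scale (SE; adjusted p = 0.00623 and 0.000212).

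The mean of the 97 probe sets in each liver shows the day 1 rise without any choice among members. It was 8.83, 8.68, 8.79, 8.82 and 8.68 in the Cr livers of day 1, against 8.59, 8.53, 8.53, 8.51 and 8.50 in their controls (log2 signal). Every Cr liver lay above every control. In the Cd livers of day 1 it was 8.37, 8.47, 8.52 and 8.47, against 8.49, 8.47, 8.50, 8.51 and 8.38 in their controls, and the groups overlapped. On days 3 and 7 exposed and control livers overlapped for both metals. Levels of the 2 metals are not set against each other: the array means over all probe sets did not overlap between the metals, and whether all arrays were normalized together is not stated.

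**Figure D1:**
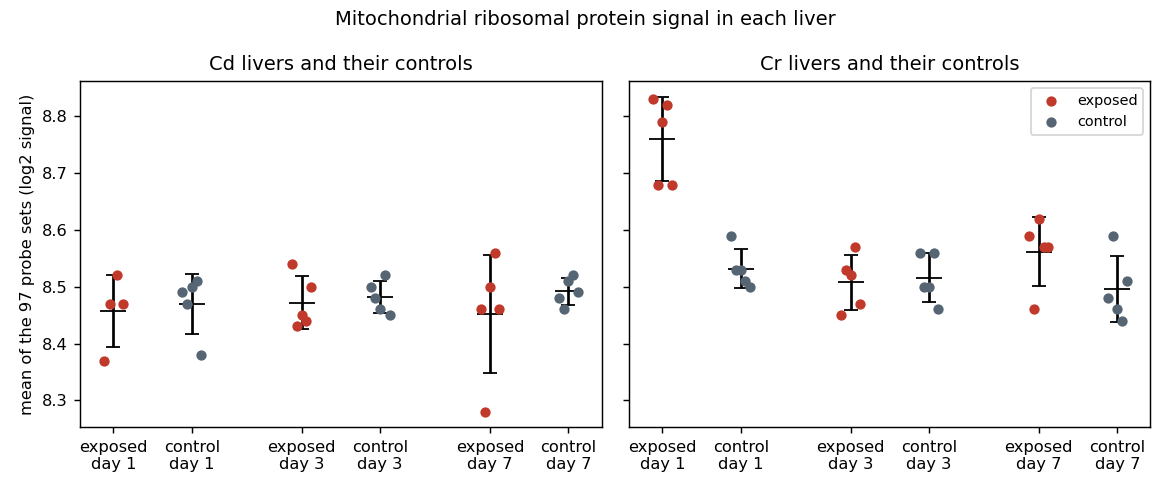
Mean log2 signal of the 97 mitochondrial ribosomal protein probe sets in each liver (points), with group mean and SD (bars), exposed beside control for each day and metal. The 5 Cr livers of day 1 lie between 8.68 and 8.83, above all 5 of their controls (8.50 to 8.59), and 1 Cd liver of day 7 lies at 8.28.

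Cr day 1 was a day of many changes on the whole array, so the members' count is read against it. Of all 31042 probe sets 14.8% were called higher and 11.2% lower, with a median change of -0.034 on the log2 scale, against 49 and 1 of the 97 members. With 1 probe set a gene, the brightest, 43 of 73 members were called higher and 1 lower, beside 21.5% and 12.8% of 14217 genes, and the members' median was 0.246 against -0.006 for all genes. Bright probe sets were called more often, and most members are bright. Of the members averaging at least 8 in log2 signal, 40 of 72 (55.6%) were called higher against 30.0% of all probe sets that bright, and between 6 and 8 it was 9 of 14 (64.3%) against 25.9%. None of the 11 members under 6 was called, against 5.5% of all probe sets that dim.

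All Cr livers lay above all controls for 27 of the 97 members, against 7.04% of all probe sets. They lay below all controls for 0 members, against 1698 of all 31042 probe sets. The changes were small in fold: 1 member, Mrpl47, passed the adjusted p together with the study's 1.8-fold minimum, against 1.57% of all probe sets. At an unadjusted p of 0.05 or less, 57 members were higher and 3 lower, beside 18.9% and 17.3% of all probe sets.

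Mrpl47, a large subunit protein near the mouth of the exit tunnel, had the largest rise (probe set 1382144_at). Its log2 signal was 8.86, 8.31, 8.64, 8.79 and 8.20 in Cr livers, against 7.48, 7.77, 7.85, 7.55 and 7.49 in controls. The groups did not overlap, and the difference was 0.93 ± 0.11 (SE), 1.91-fold, with an adjusted p of 5.62e-07. Mrps18b, a small subunit protein (1371809_at), read 10.50, 10.25, 10.11, 10.51 and 9.89 in Cr livers, against 9.42, 9.58, 9.34, 9.50 and 9.21 in controls. Again every Cr liver was higher, by 0.84 ± 0.10 or 1.79-fold (adjusted p = 3.56e-07).

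Mrpl49, a large subunit protein found only in mitochondria (1372619_at), read 8.66, 8.02, 8.36, 8.79 and 8.18 in Cr livers, against 7.76, 7.35, 7.51, 7.66 and 7.68 in controls, a difference of 0.81 ± 0.11 (adjusted p = 2.41e-06). Its other probe set rose as well, by 0.53 ± 0.09 (adjusted p = 5.72e-05). Mrpl12, which sits in the stalk where translation factors dock and also binds the mitochondrial RNA polymerase (1372431_at), read 11.19, 11.06, 10.91, 11.12 and 10.74 in Cr livers, against 10.34, 10.27, 10.34, 10.13 and 10.09 in controls. The gap between the lowest Cr liver and the highest control was wider than the range of the controls, and the difference was 0.77 ± 0.09 (adjusted p = 4.23e-07).

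Mrps6, a small subunit protein with a bacterial counterpart (1389110_at), read 9.10, 8.39, 8.68, 9.03 and 8.02 in Cr livers, against 7.95, 8.02, 8.0, 8.03 and 7.83 in controls. Cr liver 5 lay within the range of the controls and the other 4 Cr livers above it, for a difference of 0.68 ± 0.13 (adjusted p = 0.00017). Mrpl21, a large subunit protein (1367502_at), read 9.12, 8.97, 9.15, 9.13 and 8.59 in Cr livers, against 8.38, 8.45, 8.31, 8.30 and 8.42 in controls, a difference of 0.62 ± 0.08 (adjusted p = 1.82e-06). Cr liver 5 was the lowest of the 5 Cr livers for each of these 6 genes except Mrpl49, where liver 2 was lower.

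**Figure D2:**
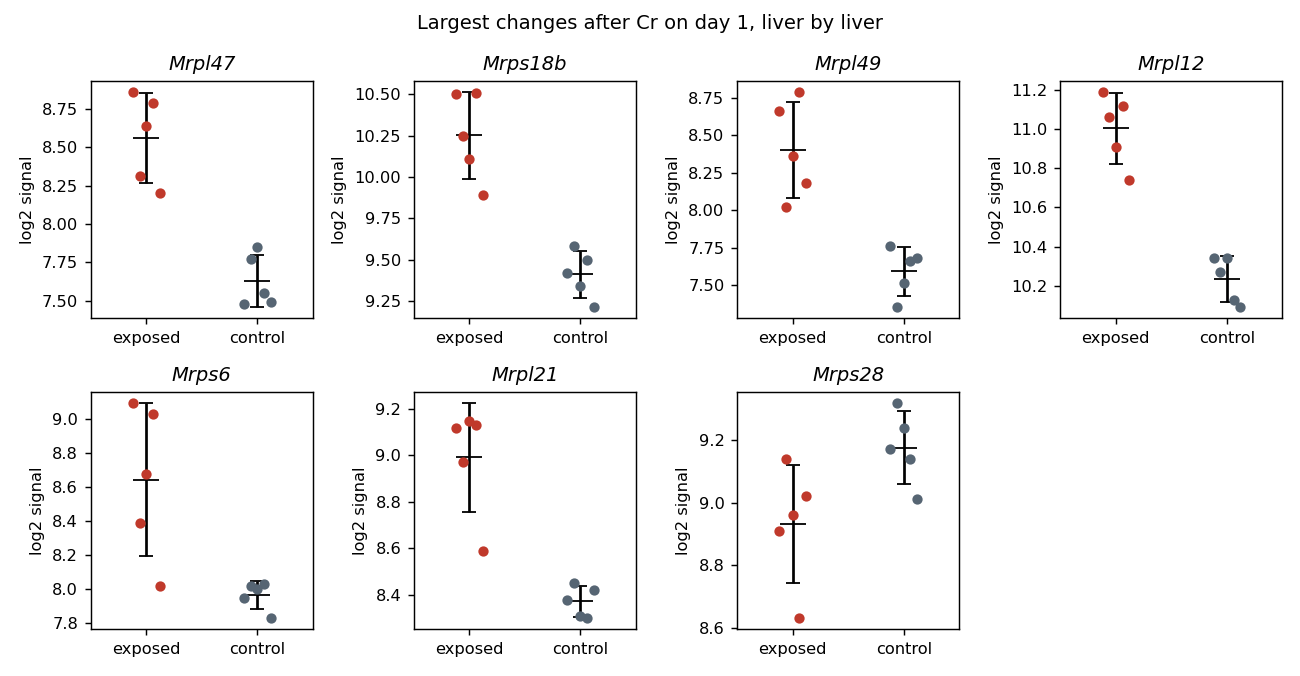
Log2 signal of the 6 members with the largest rise and the 1 member called lower on Cr day 1, each liver a point, with group mean and SD, Cr livers left of controls and a separate axis for each gene. For Mrpl47 the Cr livers run between 8.20 and 8.86 and the controls between 7.48 and 7.85, and for Mrps28 the Cr livers are the lower group, with an overlap.

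Mrps28, a small subunit protein, was the single member called lower on Cr day 1 (1373121_at). It read 8.91, 9.14, 8.96, 8.63 and 9.02 in Cr livers, against 9.17, 9.32, 9.24, 9.14 and 9.01 in controls. The groups overlapped, and the difference of -0.24 ± 0.08 (adjusted p = 0.0178) lost its call without Cr liver 4 (-0.17, adjusted p = 0.0914) or without control liver 2 (-0.20, adjusted p = 0.0589). Mrpl4, a large subunit protein that lines the exit tunnel, had a larger difference of -0.27 ± 0.17 that was not called (adjusted p = 0.272).

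Rises were spread over both subunits and over both evolutionary classes. With 1 probe set a gene, 15 of 26 large subunit genes with a bacterial counterpart were called higher (median 0.211 on the log2 scale), 13 of 22 large subunit genes specific to mitochondria (0.285), 9 of 15 small subunit genes with a bacterial counterpart (0.247) and 6 of 10 specific to mitochondria (0.248). These classes follow the assembled ribosome and not the symbol, so Mrps18a and Mrps30 count with the large subunit. The call of Mrps28 was the only lower one in the 4 classes. The 4 medians lay within 0.211 to 0.285.

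Proteins with known special roles gave the following on Cr day 1. Mrpl44, which resembles a ribonuclease, was higher by 0.46 ± 0.09 (adjusted p = 0.000345) and Mrpl45, through which the ribosome is anchored to the inner membrane, by 0.39 ± 0.11 (adjusted p = 0.0104). Mrps7 and Mrps12, which bind the small ribosomal RNA at the head and at the decoding centre, were higher by 0.42 ± 0.07 (adjusted p = 4.08e-05) and 0.25 ± 0.07 (adjusted p = 0.00793). Mrps30 was higher by 0.41 ± 0.08 (adjusted p = 0.000463).

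Mrpl3, a core protein of the large subunit, was higher by 0.25 ± 0.07 (adjusted p = 0.0099). Mrpl2, at the peptidyl transferase centre, differed by 0.11 ± 0.06 (adjusted p = 0.212), Mrpl18 by 0.14 ± 0.10 (adjusted p = 0.369) and Mrps18a by 0.20 ± 0.10 (adjusted p = 0.137), none of them called. The call of Mrpl3 was lost without Cr liver 4 (adjusted p = 0.0524), and that of Mrpl45 without Cr liver 1 (adjusted p = 0.0502). With only the arrays of that day in the fit, Mrpl3, Mrpl45 and Mrps12 lost their calls (adjusted p = 0.112, 0.0899 and 0.0595). Pooled controls and quantile normalization again also removed the call of Mrpl3 (adjusted p = 0.059 and 0.0502). So did an actin covariate for Mrpl3 and Mrps12 (adjusted p = 0.0994 and 0.052). Mrpl2 gained a call with pooled controls (adjusted p = 0.021) and Mrps18a with array weights (adjusted p = 0.0313). Mrps18a gained a call without Cr liver 2 (adjusted p = 0.0422) or Cr liver 5 (adjusted p = 0.0196).

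Of the 73 genes, 18 had several probe sets (42 in all), and none had probe sets called in opposite directions. Mrpl10, Mrpl49 and Mrpl50 had both of their probe sets called higher. Mrpl51, a large subunit protein, was the least uniform of those with a call: its 4 probe sets ran between -0.15 and 0.50 on the log2 scale, the one at 0.50 ± 0.13 was called (adjusted p = 0.00414), and the 2 brightest, both at -0.15 ± 0.06, were not (adjusted p = 0.0542 and 0.0573). Which transcripts each of these probe sets detects was not examined.

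The Cd livers of day 1 had 7 called members of 97, 4 higher and 3 lower, in a background of 6.39% higher and 5.27% lower calls. Neither share of members was above its background, and the median member change was -0.003 beside -0.007 for all probe sets. Mrpl17, a large subunit protein (1369013_a_at), read 10.94, 10.95, 11.23 and 10.69 in Cd livers, against 10.69, 10.73, 10.47, 10.60 and 10.51 in controls, a difference of 0.35 ± 0.08 (adjusted p = 0.00502). Mrps18b read 9.74, 9.73, 9.85 and 9.66 in Cd livers, against 9.28, 9.56, 9.45, 9.27 and 9.45 in controls, a difference of 0.34 ± 0.10 (adjusted p = 0.0294). Cd liver 5 overlapped the controls for Mrpl17, and all 4 Cd livers lay above them for Mrps18b.

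Mrpl54 and Mrpl55, large subunit proteins found only in mitochondria, were also called higher. Mrpl54 (1388853_at) read 10.78, 10.77, 10.83 and 10.59 in Cd livers, against 10.44, 10.33, 10.65, 10.54 and 10.41 in controls, a difference of 0.27 ± 0.07 (adjusted p = 0.0121). Mrpl55 (1375161_at) read 9.84, 9.82, 9.98 and 9.75 in Cd livers, against 9.65, 9.61, 9.62, 9.63 and 9.45 in controls, a difference of 0.25 ± 0.07 (adjusted p = 0.0113). The Cd livers lay above all controls for Mrpl55 and overlapped them for Mrpl54. Mrpl17, Mrps18b and Mrpl55 were called higher after both metals, and on Cr day 1 the changes of Mrpl17 and Mrpl55 were 0.58 ± 0.08 and 0.49 ± 0.08 (adjusted p = 1.58e-06 and 3.78e-05).

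The 3 members called lower after Cd belong to the large subunit, as do Mrpl17, Mrpl54 and Mrpl55 of those called higher. Most member genes do too (46 of the 73 are named Mrpl), so the shared subunit does not set these 3 apart. Mrpl15 (1398891_at) read 10.34, 10.55, 10.48 and 10.68 in Cd livers, against 11.13, 11.01, 11.02, 11.05 and 10.99 in controls, a difference of -0.53 ± 0.09 (adjusted p = 0.00019). Mrpl14 (1372597_at) read 8.40, 8.60, 8.35 and 8.41 in Cd livers, against 8.84, 8.62, 9.06, 8.71 and 8.65 in controls, a difference of -0.33 ± 0.09 (adjusted p = 0.0137). Every Cd liver lay below every control for both, by a margin of a few hundredths for Mrpl14. Mrps18a (1371591_at) read 8.74, 8.84, 8.95 and 8.94 in Cd livers, against 9.17, 9.08, 9.09, 9.28 and 9.18 in controls, a difference of -0.29 ± 0.06 (adjusted p = 0.00246), and again the groups did not overlap. That day all Cd livers lay above all controls for 2 of the 97 members and below them for 4. Of all 31042 probe sets 1783 lay above and 1594 below, so members were not separated more often than the array as a whole.

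Without Cd liver 4 the number called higher dropped to 1 of the 97, and without Cd liver 5 the number called lower was 6. Mrps18b lost its Cd call in 5 of the 9 fits that left out 1 liver of that day, with adjusted p-values up to 0.105, and Mrpl54 and Mrpl55 lost theirs without Cd liver 4 (adjusted p = 0.0568 and 0.071). Mrpl14 lost its call without Cd liver 4 (adjusted p = 0.057) or control liver 3 (adjusted p = 0.0515). Mrpl15 kept its call in all 9. With only the arrays of that day in the fit, Mrpl17, Mrpl54, Mrpl55 and Mrpl14 lost their Cd calls (adjusted p = 0.0735, 0.0905, 0.0735 and 0.0723).

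**Figure D3:**
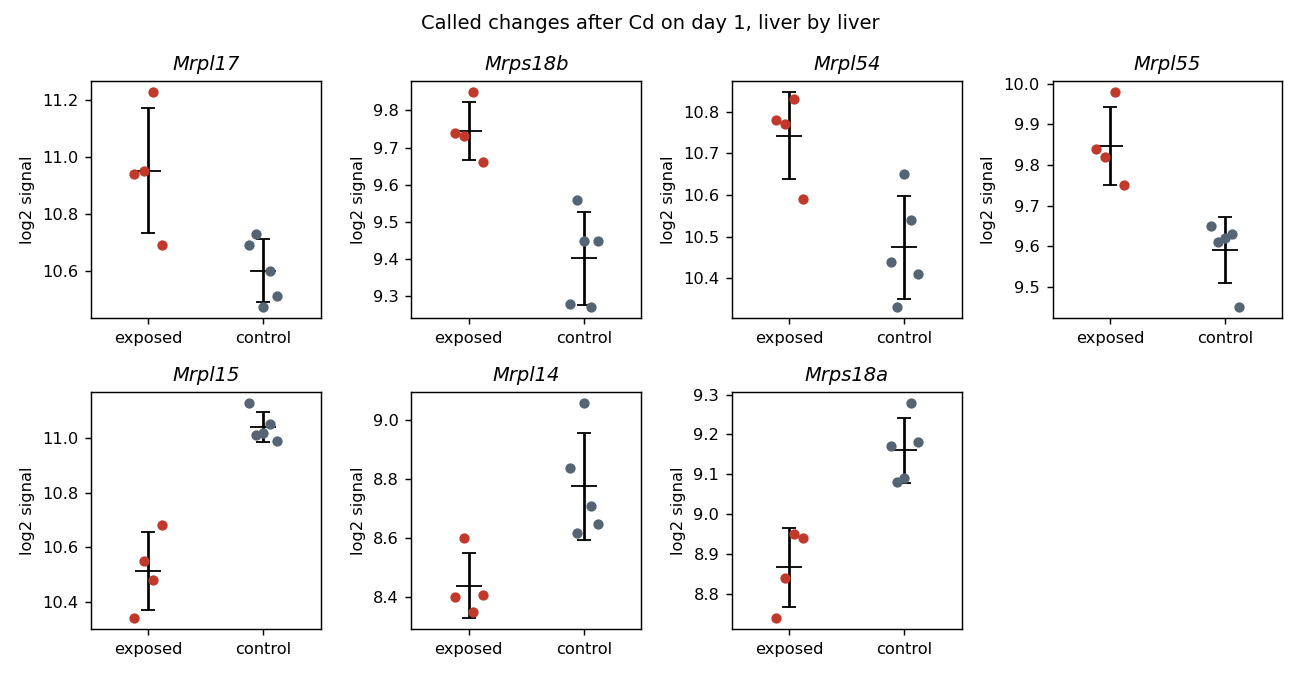
Log2 signal of the 7 members called on Cd day 1, each liver a point, with group mean and SD, Cd livers left of controls and a separate axis for each gene. For Mrpl15 the 4 Cd livers lie between 10.34 and 10.68 and the 5 controls between 10.99 and 11.13.

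The difference between the metals was tested as such, as the Cd change minus the Cr change over all 59 arrays. On day 1, 34 members were called lower in this difference and 1 higher, in a background of 7.17% lower and 4.63% higher, and the members' median was -0.250 beside 0.020 for all probe sets. Mrpl12 differed most, by -0.79 ± 0.12 (adjusted p = 1.37e-05), its change after Cd being -0.02 ± 0.08. Mrpl47 differed by -0.76 ± 0.16 (adjusted p = 0.000668), with a Cd change of 0.17 ± 0.11. Mrps6 differed by -0.74 ± 0.16 and Mrpl49 by -0.73 ± 0.17 (adjusted p = 0.00142 and 0.0027), with Cd changes of -0.06 ± 0.10 and 0.08 ± 0.13. None of these 4 Cd changes was called.

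Mrps18b, although called higher after both metals, changed less after Cd, by -0.50 ± 0.14 (adjusted p = 0.0151). Mrpl15 and Mrps18a, lower after Cd and not called after Cr, differed by -0.49 ± 0.11 and -0.49 ± 0.12 (adjusted p = 0.00143 and 0.00331). Mrps28 was the 1 member on the other side, at 0.39 ± 0.11 (adjusted p = 0.0148). The 49 members called higher on Cr day 1 ran between -0.23 and 0.35 on Cd day 1, with a median of 0.01, and 30 of them were among the 34. The Cr values that chose the 49 also enter this difference, so that overlap is partly built in. On days 3 and 7 no member was called in the difference between metals, where 0.0129% and 0.283% of all probe sets were.

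**Figure D4:**
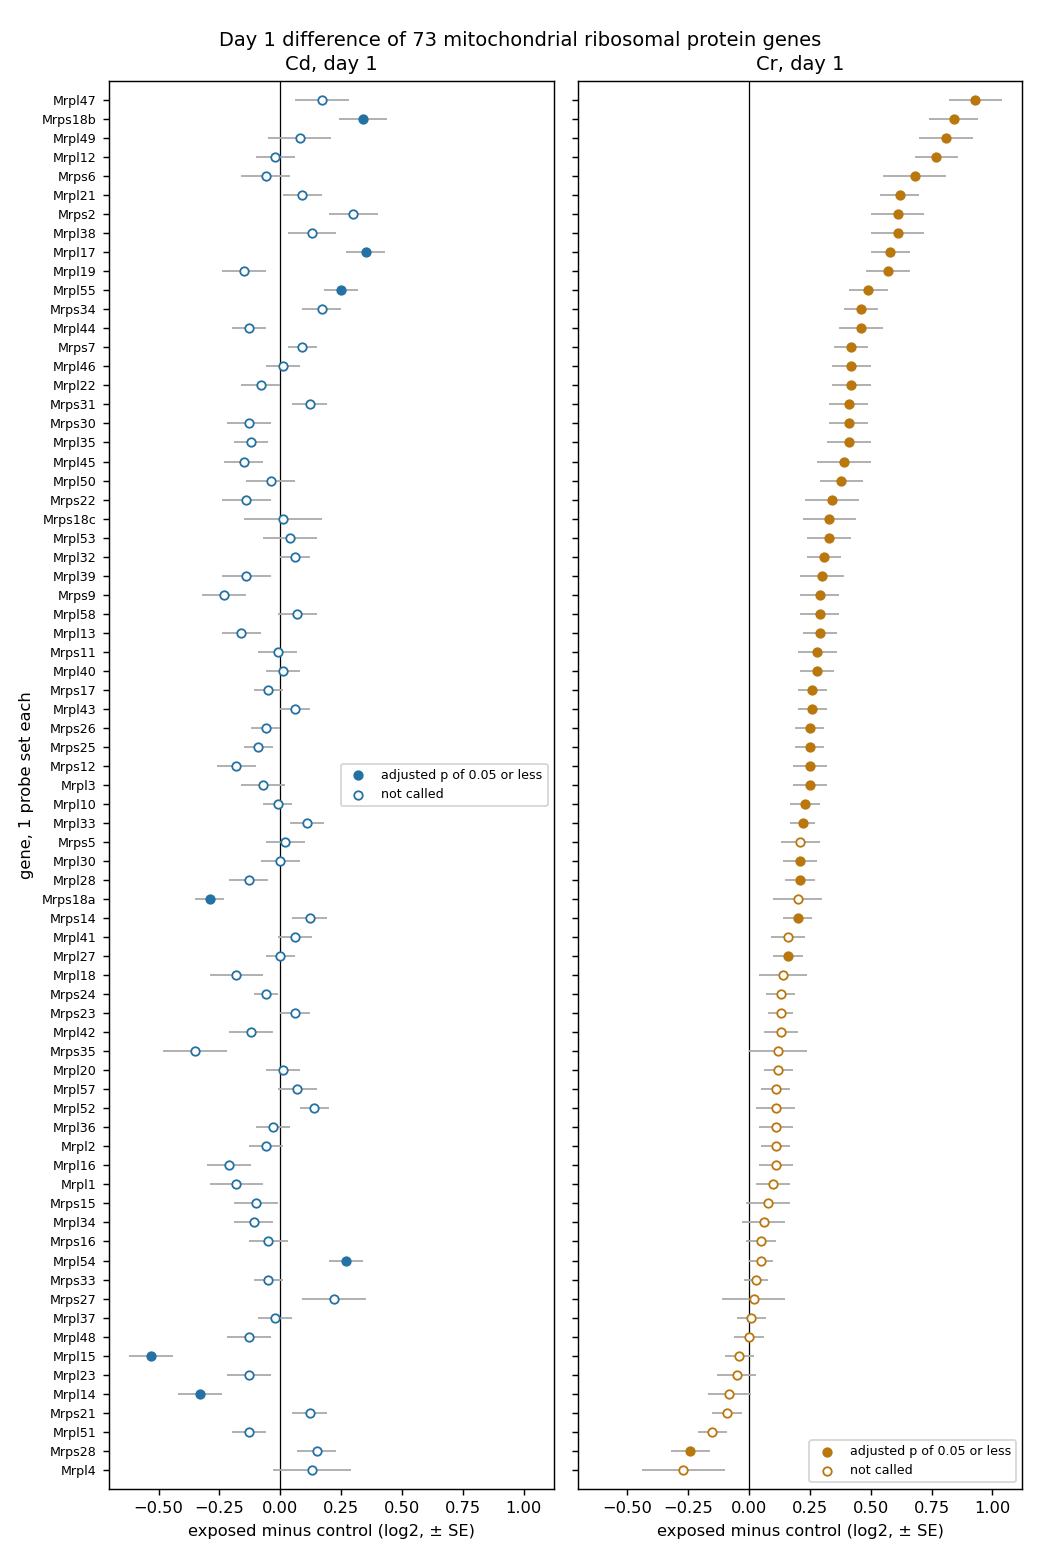
Day 1 difference from same-day controls (log2, ± SE) of the 73 genes, 1 probe set each, ordered by the Cr difference, with Cd on the left and Cr on the right, filled points being called. After Cr, 43 genes are called higher and Mrps28 lower, and after Cd, 4 are called higher and 3 lower.

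The rise after Cr was confined to day 1 as far as calls go. On Cr day 3 no member was called in a background of 0.00322%, and on Cr day 7 none in a background of 0.126%, with 1 and 5 members at an unadjusted p of 0.05 or less. Of all probe sets 6.87% and 8.44% passed that unadjusted threshold in either direction on those days, and neither count of members was above that share. The 5 of Cr day 7 were all higher (Mrps12, Mrpl12, Mrpl19, Mrpl47 and Mrps30), and the share of all probe sets in that direction alone is not given here. The change on day 1 minus that on day 3 was called higher for 30 members and lower for 0, in a background of 7.01% higher and 4.53% lower. All 30 were among the 49, but the day 1 values that chose the 49 also enter this difference, so that overlap is partly built in. Without Cr liver 1 or without Cr liver 4 of day 1 the 30 dropped to 19, and with the controls of the 3 days pooled there were 57 higher and 3 lower.

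Mrpl49 gave the largest such difference between days, 0.85 ± 0.16 (adjusted p = 0.00065), followed by Mrps18b at 0.82 ± 0.14 (adjusted p = 0.000362). For Mrps18b the change from controls was 0.02 ± 0.10 on day 3 and -0.05 ± 0.10 on day 7 (adjusted p = 0.99 and 0.951). Mrpl12 differed from controls by 0.19 ± 0.09 on day 3 and 0.20 ± 0.09 on day 7 (adjusted p = 0.733 and 0.536), neither called. On Cr day 7, 79 of the 97 members lay above 0 with a median of 0.061, beside 0.001 for all probe sets, and 44 of the 49 lay above 0 with a median of 0.07. No member of day 7 differed from day 3 by a called amount, so this small shift has no call behind it.

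For days 3 and 7 the genes with the lowest p are named, each gene by its brightest probe set. On Cr day 3 Mrpl48, a large subunit protein (1371586_at), read 8.32, 8.44, 8.50, 8.43 and 8.48 in Cr livers, against 8.57, 8.58, 8.61, 8.54 and 8.64 in controls, a difference of -0.16 ± 0.06 (adjusted p = 0.596). The groups did not overlap, as for 215 of all 31042 probe sets in this direction on that day, and it was still no call. On Cr day 7 Mrps12 read 10.25, 10.07, 10.27, 10.20 and 10.24 in Cr livers, against 9.95, 10.04, 9.99, 9.89 and 10.11 in controls, a difference of 0.21 ± 0.07 (adjusted p = 0.284). Mrpl19, a large subunit protein at the interface of the subunits, differed by 0.20 ± 0.09 on the same day (adjusted p = 0.535).

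After Cd no member was called on day 3 or 7, in backgrounds of 0.612% and 0.0129%, with 3 and 2 members at an unadjusted p of 0.05 or less, beside 9.83% and 6.71% of all probe sets. On Cd day 3 Mrpl4 (1388366_at) read 9.10, 8.39, 9.0, 8.95 and 8.68 in Cd livers, against 9.50, 8.99, 9.26, 9.06 and 9.41 in controls, a difference of -0.42 ± 0.15 (adjusted p = 0.281), and Mrps33, a small subunit protein, differed by -0.10 ± 0.05 (adjusted p = 0.597). Dimmer probe sets of Mrps22 and Mrps2 had lower p than Mrps33, at -0.21 ± 0.10 and -0.17 ± 0.08 (adjusted p = 0.449 and 0.491). On Cd day 7 Mrpl47 read 7.32, 7.18, 7.52, 7.37 and 7.43 in Cd livers, against 7.58, 7.81, 7.73, 7.44 and 7.91 in controls, a difference of -0.33 ± 0.10 (adjusted p = 0.551). Both genes overlapped between the groups. Mrps11 differed by -0.17 ± 0.08 on that day (adjusted p = 0.739), and by -0.07 without Cd liver 2, its lowest liver.

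The change on Cd day 1 minus that on Cd day 3 was called for 1 member, in a background of 5.15% in either direction: Mrpl15, at -0.54 ± 0.13 (adjusted p = 0.0101). On day 3 its Cd livers averaged 11.15 ± 0.16 and its controls 11.15 ± 0.12 (SD, n = 5 each). So the Mrpl15 difference of day 1 was not seen on day 3. No member was called in the change between days 3 and 7 after either metal.

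**Figure D5:**
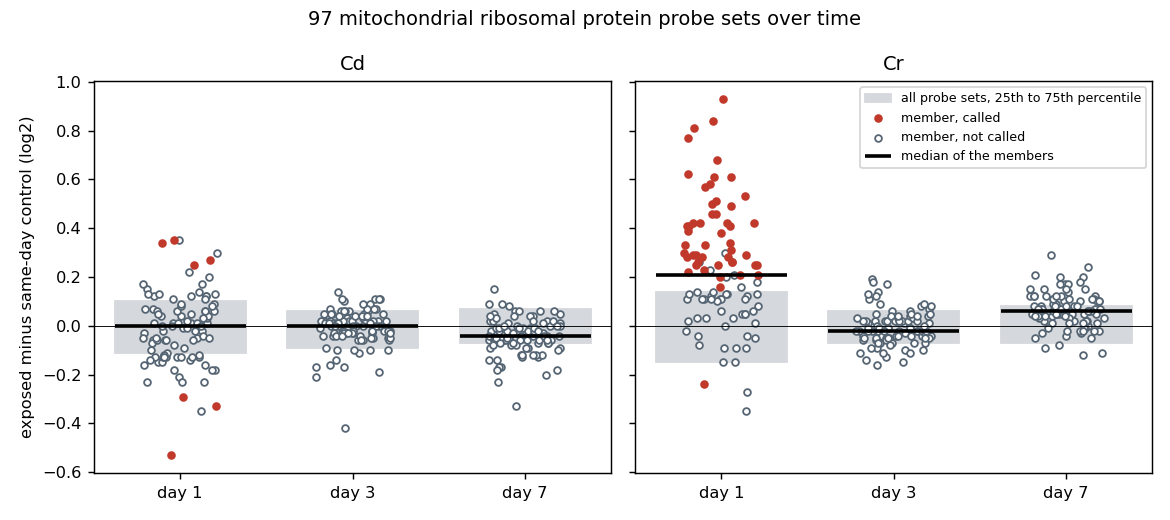
Difference from same-day controls (log2) of the 97 probe sets on days 1, 3 and 7 after Cd and after Cr, with called members filled, the members' median as a black line and the range between the 25th and 75th percentile of all probe sets as a grey box. The members' median is 0.215 on Cr day 1, -0.003 on Cd day 1 and 0.061 on Cr day 7, and no point is filled on days 3 and 7.

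Other genes of the same pathway were counted from lists with 1 probe set a gene, beside the 21.5% higher and 12.8% lower of all genes on Cr day 1. Of 25 genes for mitochondrial ribosome assembly and ribosomal RNA maturation, 13 were called higher and 2 lower, with a median of 0.357 on the log2 scale. Fastkd2, an RNA-binding protein of the large subunit's assembly, was higher by 0.90 ± 0.13 (adjusted p = 5.4e-06), and C1qbp, a matrix protein needed for mitochondrial translation, by 0.72 ± 0.08 (adjusted p = 2.05e-07). Rbfa, which acts in small subunit maturation, was lower by 0.54 on this scale, at -0.54 ± 0.10 (adjusted p = 0.000104), and was lower after Cd too, at -0.82 ± 0.13 (adjusted p = 6.56e-05).

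Of 20 genes for transcription of mitochondrial DNA and RNA processing, 9 were called higher and 1 lower on Cr day 1. They included Trmt10c, a subunit of the mitochondrial RNase P, at 0.59 ± 0.10 (adjusted p = 7.37e-05) and Tfam, which packages mitochondrial DNA and starts its transcription, at 0.38 ± 0.08 (adjusted p = 0.000556). Of 26 genes for protein import, the route by which the members reach the matrix, 17 were called higher and 3 lower. Tomm40, the channel of the outer membrane, was higher by 0.87 ± 0.13 (adjusted p = 1.11e-05), and Tomm70, a receptor there, by 0.80 ± 0.10 (adjusted p = 9.27e-07).

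Translation factors were called at about the rate of all genes. Of 13 counted, 3 were called higher, among them the elongation factor Tsfm at 0.36 ± 0.07 (adjusted p = 0.000109) and the recycling factor Mrrf at 0.34 ± 0.07 (adjusted p = 0.000673), and 2 lower, the elongation factor Gfm1 at -0.21 ± 0.07 (adjusted p = 0.0244) and the recycling factor Gfm2 at -0.20 ± 0.07 (adjusted p = 0.0373). Of 15 mitochondrial aminoacyl-tRNA synthetases 5 were called higher and 3 lower. Of 6 ribosomal proteins that carry other names, 3 were called higher, among them Dap3, a GTP-binding protein of the small subunit, at 0.32 ± 0.06 (adjusted p = 9.91e-05). Dap3 was called after Cd as well, at 0.32 ± 0.08 (adjusted p = 0.00675).

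Of 10 regulators of mitochondrial biogenesis 2 were called higher on Cr day 1, about the 21.5% of all genes called higher. Pprc1, a coactivator related to PGC-1 alpha, averaged 8.03 ± 0.20 in Cr livers and 6.31 ± 0.34 in controls (SD, n = 5 each), a difference of 1.73 ± 0.20 (SE; adjusted p = 2.16e-07), and Myc, a transcription factor of growth, differed by 1.01 ± 0.38 (adjusted p = 0.0473). Ppargc1a, the gene of PGC-1 alpha, and Nrf1 differed by 0.07 ± 0.19 and -0.12 ± 0.09 (adjusted p = 0.825 and 0.364). On Cd day 1 the same lists had between 0 and 3 genes called in each direction, where 9.3% of all genes were called higher and 7.7% lower, including Ppargc1b, another coactivator of the family, at -0.67 ± 0.15 (adjusted p = 0.0033).

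The genes whose pattern over the 12 group means was most like the members' mean were Polr3g, a subunit of RNA polymerase III (Pearson r = 0.992), Tpi1, an enzyme of glycolysis (0.986), Mettl17, a mitochondrial methyltransferase-like protein (0.983), Rtfdc1 (0.982) and Usp14, a deubiquitinase of the proteasome (0.982). The 12 points share their arrays, and the offset between metals enters every one of these values. The members' mean was 8.76 in Cr livers of day 1 and 8.45 to 8.56 in the other groups, so that 1 group weighs most. These 5 genes all rose on Cr day 1, by 0.30 to 0.88 on the log2 scale.

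The livers were whole tissue, in which fewer cells of a type and less RNA per cell cannot be told apart. Hepatocyte markers were bright in all 59 livers, with a list mean between 13.52 and 13.93 on the log2 scale. That mean was 13.68 to 13.84 in Cr livers of day 1 and 13.84 to 13.88 in their controls, and 13.52 to 13.75 in Cd livers of day 1 and 13.80 to 13.90 in theirs, where every Cd liver lay below every control. On Cr day 1, 21.5% of all genes were called higher and 12.8% lower. Of the hepatocyte markers 1 of 9 was called higher and 3 lower. Called higher too were 2 of 4 neutrophil, 1 of 8 Kupffer cell, 2 of 9 stellate cell and 2 of 5 cholangiocyte markers. So were 2 of 7 endothelial, 1 of 8 lymphocyte and 3 of 10 proliferation markers, with 1 proliferation marker lower. The cholangiocyte list mean was 5.35 to 5.92 in Cr livers, all above the 5.11 to 5.33 of controls, and the stellate list mean 7.36 to 8.17 in Cr livers and 7.14 to 7.38 in controls. On Cd day 1, 9.3% of all genes were called higher and 7.7% lower. That day 7 of 10 proliferation markers were called lower and 3 of 4 neutrophil markers higher. All 8 Kupffer cell markers were called lower, with a list mean of 5.03 to 7.83 in Cd livers and 8.71 to 9.22 in controls. Cd liver 5 was the one at 7.83. The part of these cell types in the members' changes was not tested.

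RNA quality was read from the array's own actin probes, as the 3′ minus the 5′ signal, which is higher when RNA is shorter. It was 1.62, 2.51, 1.89, 1.64 and 1.69 in Cr livers of day 1, against 2.13, 2.32, 2.46, 1.92 and 1.98 in controls (log2), so 4 of the 5 Cr livers lay below all controls. With this value as a covariate, chosen after seeing the data, 41 members were called higher on Cr day 1 and 0 lower, all 41 of them among the 49.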

How the data were processed

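RNA of 59 rat livers was hybridised to Affymetrix rat genome arrays. The deposited values are on the log2 scale: per the labels and methods, the authors background-corrected, normalized and summarised the arrays by RMA in Partek. RMA shrinks differences of dim probe sets, and array data have no read depth, so precision rests on the number of livers. Values were used as deposited. Of 31099 rows, 57 array controls were left out, 20826 of the remaining 31042 had 1 gene symbol, 436 several and 9780 none. The members and the gene lists were chosen with earlier results of these data known.

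Each metal was fitted in limma 3.58.1 (R 4.3.3) with 6 groups and the contrast exposed minus same-day control, 2-sided, with Benjamini-Hochberg adjustment over all 31042 probe sets. Differences between metals and between days were contrasts of contrasts. No filter on low values was used, so every member was tested, and the study's present-call filter and pooled controls were not the main choice. The fit was checked on simulated data. Genes were named by rule: on day 1 the 6 largest called rises and up to 4 falls per metal, on days 3 and 7 the 2 lowest p-values over the brightest probe set of each gene, the 4 largest differences between metals, and members with known roles. Mrpl51, Mrpl10, Mrpl50, Mrps11, Mrpl46, Mrps22, Mrps2 and the genes of the other lists were picked after their values were seen. Alternatives covered controls, replicate numbers, filter, samples in the fit, scaling, variance, array weights, probe set choice, fold minimum and each liver left out. No authors' fold changes or p-values were used. Promoters are RefSeq's for GRCr8.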

Additional observations from a re-analysis of the deposited data

Results flagged for a closer look

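In groups of 4 or 5 livers, 92 sets of values (the mean of the 97 members in each group, and each named member in the groups of its comparison) were examined for a liver far from the rest, and 5 had one. Chance flags about 1 set in 20. For the members' mean, control liver 5 of Cd day 1 lay at 8.38, against 8.47 to 8.51 in the other controls. The same liver was low for Mrpl55, at 9.45 against 9.61 to 9.65. Mrps33 read 10.36 in control liver 1 of Cd day 3, against 10.19 to 10.21 in the others. Mrps11 read 8.25 in Cd liver 2 of day 7, against 8.70 to 8.88 in the other Cd livers, and this liver also had the lowest members' mean of all 59 (8.28). Mrps12 read 9.96 in control liver 2 of Cr day 1, against 10.11 to 10.17.

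Effects that differed between groups by a test of the difference itself were also listed. On day 1 the change of 35 members differed between Cd and Cr, 1 higher and 34 lower after Cd. The change after Cr differed between days 1 and 3 for 30 members, all higher on day 1, and the change after Cd for 1 member. Of the named members, 15 differed between metals on day 1. The differences, Cd minus Cr on the log2 scale, were -0.79 for Mrpl12, -0.76 for Mrpl47, -0.74 for Mrps6, -0.73 for Mrpl49, -0.59 for Mrpl44, -0.54 for Mrpl45 and Mrps30, -0.53 for Mrpl21, -0.50 for Mrps18b, -0.49 for Mrpl15 and Mrps18a, -0.43 for Mrps12, -0.33 for Mrpl3 and Mrps7, and 0.39 for Mrps28.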

How the results depend on the processing

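No named member that was called changed direction in the alternatives run, and the members' median of each metal and day moved by less than 1 SD between livers. For Cr day 1 the number called higher lay between 37 (arrays of that day alone) and 58 (pooled controls) over the fits of all livers, and 33 of the 49 were called in every fit of that comparison. With the 1.8-fold minimum 1 member was higher and 0 lower after Cr, and 0 and 0 after Cd. The 1 member lower after Cr became 3 with pooled controls, the filter at a mean log2 signal of 6 or more, quantile normalization again, no moderation of the variance or array weights, 2 with both metals in 1 fit, and 0 with arrays of that day alone or the actin covariate. After Cd on day 1, the 4 higher became 1 with arrays of that day alone, and the 3 lower became 8 with pooled controls and 5 with the filter or quantile normalization. In Cd minus Cr on day 1, the 1 higher became 2 with pooled controls, the filter or quantile normalization and 0 with the actin covariate, and the lower calls numbered 51 with pooled controls. For Cr day 1 minus day 3, pooled controls gave 57 higher and 3 lower. For Cd day 1 minus day 3, the higher and lower calls were 4 and 5 with pooled controls, 1 and 3 with the filter, and 0 and 2 with quantile normalization. The cause of these moves was not tested.

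Leaving out 1 liver at a time, the members called on Cr day 1 ran between 45 and 53 higher and 0 and 3 lower, on Cd day 1 between 1 and 5 higher and 2 and 6 lower, in Cd minus Cr on day 1 between 0 and 2 higher and 25 and 41 lower, for Cr day 1 minus day 3 between 19 and 41 higher, and for Cd day 1 minus day 3 between 0 and 1 higher and 1 and 2 lower. Cd minus Cr on day 7 had between 0 and 1 called, the 1 without Cr liver 5. Without liver 5 of Cr day 1 or control liver 1 there were 3 lower after Cr, and without control liver 2 or Cr liver 4 there were 0.

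Nothing in the labels says what livers with the same number share. Over 29 same-numbered exposed and control livers the mean correlation of deviations was 0.122, against -0.03 over the 116 other pairs, and 19 of the 29 exposed livers correlated best with their own number, a hint from the data of something shared. Each exposed liver had 5 same-day controls to correlate with, and the lowest same-number correlation was -0.082. The labels state no pairs, so the main fit left the numbers out, and a replicate block was run as an alternative. With a replicate block, the Cr day 1 calls were 50 higher and 1 lower, the Cd day 1 calls 5 higher and 3 lower, and the calls in Cd minus Cr 1 higher and 38 lower, so the block moved no count by over 1.5 times.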
